A study of Homo sapiens with 6 samples.

Results

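The genes described here are the ERK feedback phosphatases and Sprouty genes, a group of 10 genes whose transcripts were measured by RNA-seq in HepG2 cells. They were selected by symbol from the gene count table: DUSP1, DUSP4, DUSP5, DUSP6, DUSP7, DUSP10, SPRY2, SPRY4, SPRED1 and PHLDA1. These are 10 of the 34036 genes listed, and all 10 were among the 14476 genes that passed the filter on low counts and were tested. The study asked how loss of DGUOK, the mitochondrial deoxyguanosine kinase, alters the transcriptome of liver-derived cells. HepG2 is a human line derived from a hepatocellular carcinoma, and it carries an activating mutation in NRAS. Cells received either a non-targeting siRNA (siCON) or a pool of siRNAs against DGUOK (siDGk) with Lipofectamine RNAiMAX. PolyA RNA was collected after 48 h from 3 replicates of each group. Libraries of siCON replicates 1, 2 and 3 held 19065684, 18915508 and 10527216 counts on genes. Those of siDGk replicates 1, 2 and 3 held 18613138, 15978314 and 21334876. Groups were read from the sample titles and library names, because the treatment field names the control siRNA for all 6 libraries.

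Growth factor receptors signal through RAS, RAF and MEK to the ERK kinases, and ERK in turn raises the transcription of its own inhibitors. Dual-specificity phosphatases (DUSPs) remove the activating phosphates from MAP kinases, some in the nucleus and some in the cytoplasm, while Sprouty and Spred proteins act upstream on receptors, RAS and RAF. In hepatocytes and liver tumour cells these transcripts are widely read as a record of ERK output, although p38, JNK, CREB and glucocorticoid signals also reach several of them.

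The knockdown label was checked first. DGUOK stood at 54.4, 53.1 and 48.2 CPM (counts per 1000000 on TMM-scaled library sizes) in siCON replicates 1, 2 and 3, and at 9.08, 10.5 and 6.72 CPM in the siDGk replicates. All 3 siDGk libraries lay below all 3 siCON libraries, with a log2 fold change of −2.57 ± 0.19 (SE), or 0.168 of the siCON level. The adjusted p was 1.64e-08 by edgeR's quasi-likelihood test with Benjamini-Hochberg adjustment over all genes tested. Calls required this adjusted p to be below 0.05 and the log2 fold change to be over 0.5 in size.

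Of the 10 feedback genes, 6 were called higher in siDGk cells and 0 were called lower, where 7.42% of all tested genes were called higher and 6.68% lower. The 6 were DUSP4, DUSP5, SPRY4, PHLDA1, DUSP6 and DUSP1. Because the 10 genes were chosen with earlier results of these data known, their share of calls is no independent evidence. In edgeR at an unadjusted p under 0.05, as in DESeq2, the counts were again 6 higher and 0 lower. In the same 6 genes every siDGk library lay above every siCON library, a pattern found in 18.7% of the tested genes, and its mirror image, with every siDGk library below, held for 0 of the 10 and for 17.3% of tested genes. Over the 10 genes the median log2 fold change was 0.86, against 0.02 over all 14476 genes. DUSP4 and DUSP6 are also in a cytokine signaling list that the study printed from these libraries, so that list gives no independent evidence of their direction. In bulk RNA, a change in the number of cells carrying a transcript and a change in the RNA per cell cannot be told apart.

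**Figure D1:**
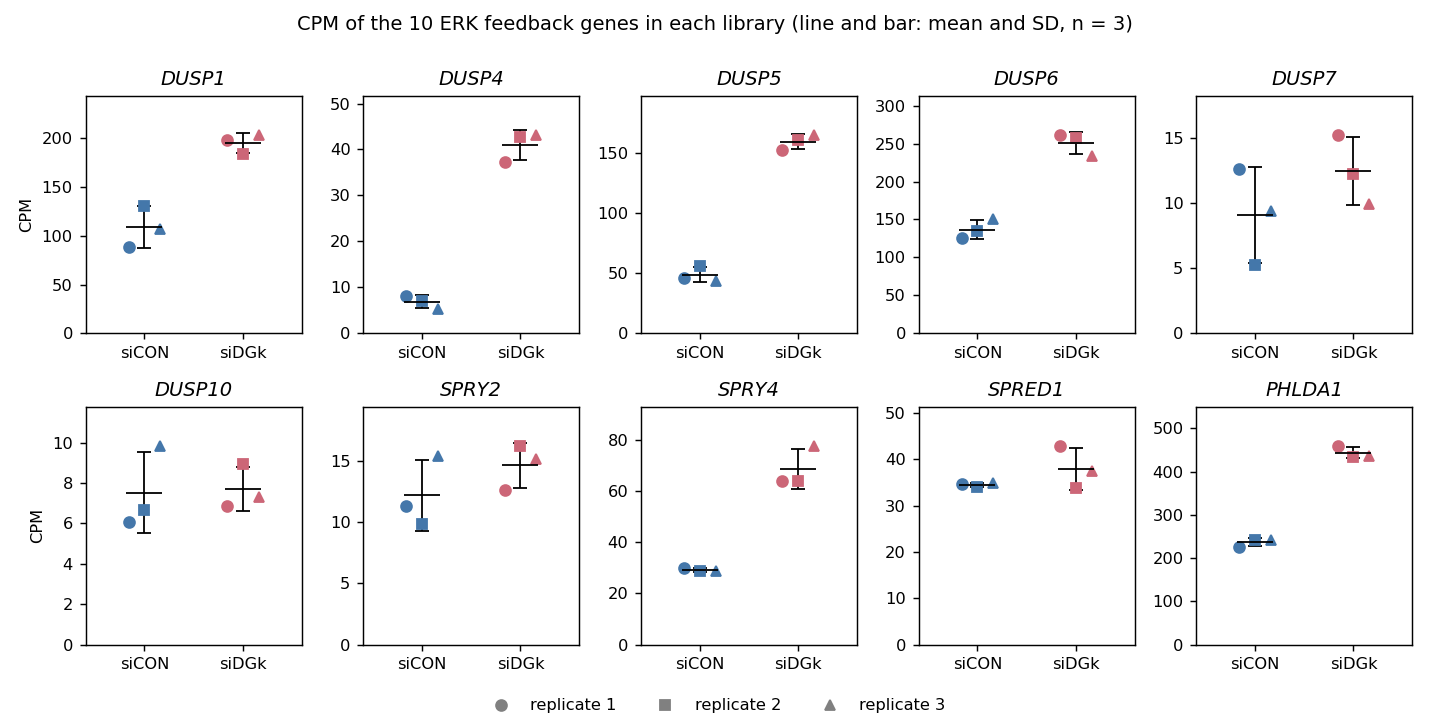
CPM of each of the 10 ERK feedback genes (vertical axis, linear from 0, a separate scale per gene) in 3 siCON (blue) and 3 siDGk (red) libraries; marker shapes give the replicate number, and the line and bar give the mean and SD (n = 3). The siDGk markers lie wholly above the siCON markers for DUSP1, DUSP4, DUSP5, DUSP6, SPRY4 and PHLDA1, for instance 37.2 to 43.1 CPM against 5.34 to 8.12 for DUSP4, and overlap them for the other genes.

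The promoters of called genes are shown here because these genes rose together and are known as inducible. RefSeq windows on GRCh38.p14, running from 250 bases before to 50 bases after a transcript start, matched 8 of the 10 genes. DUSP4 and DUSP5, which had the widest changes, had no window, so their promoters were not searched. The windows of 4 called genes follow, each 5′ to 3′ on the gene's own strand, which is the minus strand in each case. They are DUSP1 (chr5:172771146-172771445), DUSP6 (chr12:89352452-89352751), SPRY4 (chr5:142324198-142324497) and PHLDA1 (chr12:76031727-76032026). The SPRY4 window lies at a start inside the gene, whose 5′ end in Gencode 44 is at base 142326455. The windows of DUSP1, DUSP6 and PHLDA1 lie at the 5′ end of their gene. Capitals mark matches to TGACG, the core of the cyclic AMP response element (CRE), or to CCGGAA, the core of an ETS site, on either strand.
DUSP1: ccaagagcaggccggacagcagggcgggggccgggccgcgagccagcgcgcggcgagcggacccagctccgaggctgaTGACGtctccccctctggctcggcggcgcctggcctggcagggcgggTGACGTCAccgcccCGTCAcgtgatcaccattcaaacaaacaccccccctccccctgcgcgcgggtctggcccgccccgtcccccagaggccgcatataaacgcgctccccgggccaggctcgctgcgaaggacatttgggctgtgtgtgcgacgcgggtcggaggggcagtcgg
DUSP6: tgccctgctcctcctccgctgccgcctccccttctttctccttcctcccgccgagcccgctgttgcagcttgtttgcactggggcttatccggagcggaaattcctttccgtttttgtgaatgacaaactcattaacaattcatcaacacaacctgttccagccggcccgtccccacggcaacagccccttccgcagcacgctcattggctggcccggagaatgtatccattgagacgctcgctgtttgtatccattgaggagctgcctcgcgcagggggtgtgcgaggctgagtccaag
SPRY4: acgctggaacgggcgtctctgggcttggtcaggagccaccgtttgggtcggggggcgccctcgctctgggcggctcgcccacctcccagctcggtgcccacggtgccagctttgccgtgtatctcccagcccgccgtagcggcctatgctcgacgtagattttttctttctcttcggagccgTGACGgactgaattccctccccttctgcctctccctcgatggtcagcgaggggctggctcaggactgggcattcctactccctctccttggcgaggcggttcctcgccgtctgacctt
PHLDA1: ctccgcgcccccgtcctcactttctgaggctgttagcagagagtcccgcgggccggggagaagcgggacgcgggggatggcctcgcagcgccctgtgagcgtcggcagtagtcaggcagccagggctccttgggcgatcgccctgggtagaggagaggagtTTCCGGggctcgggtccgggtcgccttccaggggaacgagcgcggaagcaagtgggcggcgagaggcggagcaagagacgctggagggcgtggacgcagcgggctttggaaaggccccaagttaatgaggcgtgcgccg

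Both strands of each window were searched for TGACTCA (an AP-1 site), TGACGTCA (the full palindromic CRE), its core TGACG, CCGGAAGT (an ETS site), its core CCGGAA, the serum response CArG box and TATAAA. The DUSP1 window held the full CRE, with its first base 125 bases upstream of the start, and 4 matches to TGACG, of which the palindrome itself gives a pair. The other matches to TGACG in this window lay 172 and 111 bases upstream, and a TATAAA lay 30 bases upstream. Of 35114 RefSeq windows of this length, 1.85% held the full CRE, 24.6% held TGACG and 11.5% held TATAAA. The SPRY4 window held 1 TGACG, 68 bases upstream, and the PHLDA1 window held 1 CCGGAA, 89 bases upstream, a core found in 17.2% of windows. The DUSP6 window held none of the motifs searched. No window of the 8 genes held TGACTCA, CCGGAAGT or a CArG box, which 4.95%, 4.14% and 1.29% of all windows held. Among genes that were not called, SPRY2 held 1 TGACG and 1 CCGGAA in the first of its windows and DUSP10 held 1 TGACG in the second of its windows, 4 bases upstream, so matches were not limited to called genes. A match is a description of letters and not a binding site or a cause.

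DUSP4 and DUSP5, which code for nuclear, inducible phosphatases, showed the widest changes of the 10 genes. DUSP4, a nuclear enzyme that acts on ERK and also on JNK and p38, was read 152, 133 and 56 times in siCON replicates 1, 2 and 3 and 689, 693 and 937 times in the siDGk replicates. Scaled for depth, these were 8.12, 7.09 and 5.34 CPM in siCON and 37.2, 42.7 and 43.1 CPM in siDGk libraries. The lowest siDGk library was thus far above the highest siCON library, and the 3 siDGk values lay close together. DUSP4 rose by 2.56 ± 0.20 (SE) on the log2 scale, or 5.92-fold, the widest change of the 10 genes.

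DUSP5 codes for a nuclear phosphatase that is specific for ERK and also anchors it there. It stood at 46.5, 55.7 and 43.8 CPM in siCON replicates 1, 2 and 3 and at 153, 161 and 165.0 CPM in the siDGk replicates. The groups were well apart, with an SD of 6.28 CPM in siCON and 6.27 CPM in siDGk libraries (n = 3 each) against means of 48.7 and 160 CPM. DUSP5 rose by 1.71 ± 0.11 on the log2 scale, or 3.27-fold. For these genes, edgeR's quasi-likelihood test with Benjamini-Hochberg adjustment gave adjusted p-values of 4.4e-08 (DUSP4) and 2.48e-09 (DUSP5).

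DUSP1, an immediate early gene whose product dephosphorylates p38 and JNK as well as ERK, had the widest spread in CPM among siCON libraries of any of the 10 genes. Its siCON replicates 1, 2 and 3 stood at 88.4, 131 and 107 CPM, an SD of 21.3 CPM around a mean of 109 CPM. The siDGk replicates stood at 198, 183 and 203 CPM. The highest siCON library, replicate 2, was still below the lowest siDGk library, also replicate 2. Its log2 fold change was 0.84 ± 0.12 (SE), or 1.79-fold, with an adjusted p of 3.27e-05 by edgeR's quasi-likelihood test with Benjamini-Hochberg adjustment. DUSP2, the remaining nuclear phosphatase, was read in 1 library alone and was not tested.

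Of the cytoplasmic phosphatases specific for ERK, DUSP6 rose and DUSP7 was not called. DUSP9, of the same class but outside the selected feedback genes, was called lower, at −0.84 on the log2 scale. DUSP6, the classical feedback phosphatase of ERK, stood at 125, 134 and 150.2 CPM in siCON replicates 1, 2 and 3 and at 261, 257 and 234 CPM in the siDGk replicates. The groups did not overlap, and the gap between siCON replicate 3 and siDGk replicate 3 was the narrowest between a siCON and a siDGk library. DUSP6 rose by 0.88 ± 0.09 (SE) on the log2 scale, or 1.84-fold, with an adjusted p of 1.11e-06 by edgeR's quasi-likelihood test with Benjamini-Hochberg adjustment. DUSP6 shares 1105 exonic bases in Gencode 44 with an antisense lncRNA that gathered 29 counts over the 6 libraries. Because counting ignored strand and dropped reads over more than 1 gene, reads over such shared bases may be missing from the DUSP6 count.

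DUSP7, a close relative of DUSP6, was low and scattered. It stood at 12.6, 5.22 and 9.34 CPM in siCON replicates 1, 2 and 3, and at 15.2, 12.2 and 9.94 CPM in the siDGk replicates. Values of the groups were interleaved. For DUSP7 the log2 fold change was 0.46, with a 95% interval from −0.20 to 1.12, so a rise as large as that of DUSP6 was not told apart from no change. It was 0.79 without siCON replicate 1, 0.17 without siCON replicate 2 and 0.27 without siDGk replicate 1, and was called in none of these.

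DUSP10 codes for a phosphatase that prefers JNK and p38. It ranged from 6.09 to 9.82 CPM in siCON and from 6.86 to 8.93 CPM in siDGk libraries. The siCON library with the highest value, replicate 3, was above every siDGk library. The log2 fold change was 0.04, with a 95% interval from −0.64 to 0.73, and its sign turned when siCON replicate 1, siCON replicate 2 or siDGk replicate 2 was left out (−0.09, −0.04 and −0.08).

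Among the inhibitors that act upstream of RAF, SPRY4 rose. Sprouty proteins are recruited to the membrane after receptor activation and dampen signaling to RAS and RAF. SPRY4 stood at 29.9, 28.9 and 28.8 CPM in siCON replicates 1, 2 and 3 and at 64.1, 64.0 and 77.5 CPM in the siDGk replicates. The siCON libraries were nearly level, with an SD of 0.624 CPM, and siDGk replicate 3 was the highest of the 6. SPRY4 rose by 1.23 ± 0.14 (SE) on the log2 scale, or 2.35-fold, with an adjusted p of 2.46e-06 by edgeR's quasi-likelihood test with Benjamini-Hochberg adjustment.

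SPRY2, the other Sprouty gene of the group, stood at 11.3, 9.86 and 15.4 CPM in siCON replicates 1, 2 and 3 and at 12.6, 16.2 and 15.1 CPM in the siDGk replicates. Its groups overlapped through siCON replicate 3, the shallowest library. The log2 fold change of SPRY2 was 0.27, with a 95% interval from −0.25 to 0.79, and moved to 0.14 without siCON replicate 2 and to 0.47 without siCON replicate 3. SPRED1, which brings the RAS GTPase activator neurofibromin to the membrane, ranged from 33.9 to 34.8 CPM in siCON and from 33.7 to 42.8 CPM in siDGk libraries. Its log2 fold change was 0.14, with a 95% interval from −0.18 to 0.46, which does not reach the call threshold on either side, and moved to 0.03 without siDGk replicate 1 and to 0.22 without siDGk replicate 2. That SPRY4 was called and SPRY2 was not is no test of a difference between them, and none was made.

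PHLDA1 codes for a pleckstrin homology-like protein; its transcript is induced by ERK. It had the highest CPM of the 10 genes. PHLDA1 stood at 225, 242 and 242 CPM in siCON replicates 1, 2 and 3 and at 458, 435 and 437 CPM in the siDGk replicates. Spread within a group was small, with SDs of 9.94 and 13.0 CPM, and the groups were wide apart. The log2 fold change was 0.91 ± 0.07 (SE), or 1.87-fold, with an adjusted p of 6.87e-08 by edgeR's quasi-likelihood test with Benjamini-Hochberg adjustment. PHLDA1 shares 553 exonic bases with the antisense gene PHLDA1-AS1, which gathered 48 counts over the 6 libraries.

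**Figure D2:**
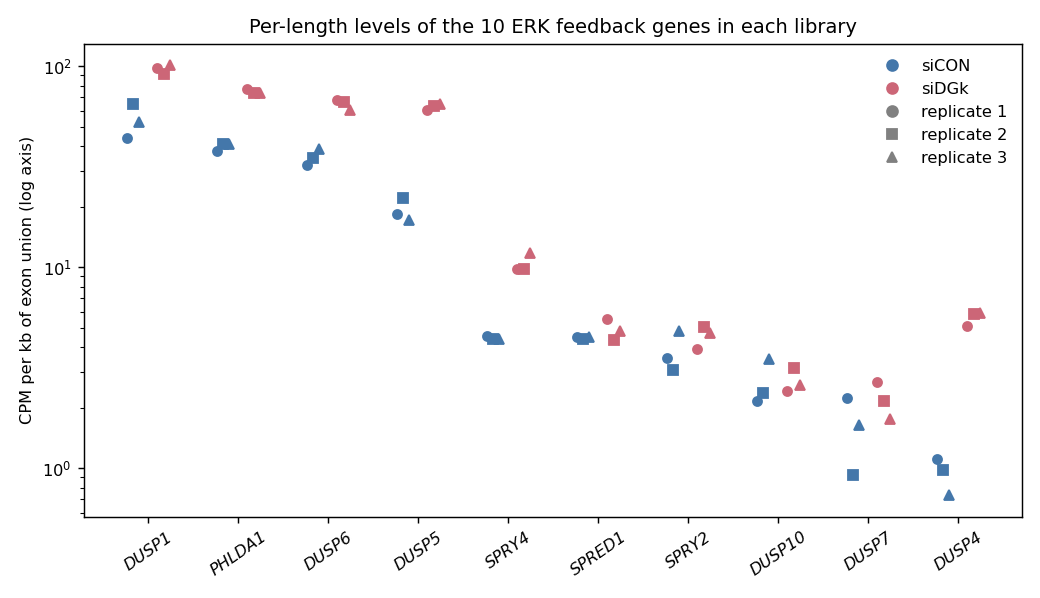
Per-length level of each gene (CPM per kb of exon union, log axis) in 3 siCON (blue) and 3 siDGk (red) libraries, with marker shapes for the replicate number and genes ordered by their siCON mean. DUSP1, PHLDA1, DUSP6 and DUSP5 lie above the rest in every library, and DUSP4 moves from a mean of 0.942 to 5.64 CPM per kb.

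Levels between genes were compared per length of exon, as CPM per kb. In siCON cells DUSP1 was the highest of the 10, at 54.0 ± 10.6 CPM per kb (SD, n = 3), followed by PHLDA1 at 40.0 ± 1.68, DUSP6 at 35.4 ± 3.29 and DUSP5 at 19.2 ± 2.48 CPM per kb. Libraries of PHLDA1 and DUSP6 overlapped, while DUSP1 stood above PHLDA1 and DUSP5 below DUSP6 in every library. A wide gap separated these from SPRY4, at 4.45 CPM per kb, whose libraries overlapped those of SPRED1. SPRED1 in turn overlapped SPRY2, SPRY2 overlapped DUSP10, DUSP10 overlapped DUSP7, and DUSP7 overlapped DUSP4, which was the lowest at 0.942 ± 0.193 CPM per kb.

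In siDGk cells the first 5 places were the same, with DUSP1 at 96.8 ± 5.08 CPM per kb, PHLDA1 at 74.9 ± 2.19, DUSP6 at 65.0 ± 3.83, DUSP5 at 63.0 ± 2.47 and SPRY4 at 10.5 ± 1.19. DUSP5 libraries now overlapped those of DUSP6, which they had not in siCON cells. DUSP4 moved from place 10 to place 6, at 5.64 ± 0.450 CPM per kb, and overlapped SPRED1, at 4.90 ± 0.588, through its lowest library (5.12, against 5.52 in the highest of SPRED1). DUSP7 was the lowest, at 2.19 ± 0.464 CPM per kb, overlapping DUSP10 at 2.72 ± 0.384. Because DUSP6 and PHLDA1 share 1105 of 3859 and 553 of 5913 exon bases with other genes, and reads over more than 1 gene were dropped, the order among the highest genes is uncertain. Over unshared bases DUSP6 had a higher mean than PHLDA1 (49.6 against 44.1 CPM per kb in siCON and 91.0 against 82.7 in siDGk cells), DUSP1 libraries overlapped those of DUSP6 in both groups and those of PHLDA1 in siCON cells, and DUSP5 lay below DUSP6 in every library. The called genes thus included both the transcript with the highest mean of the group and the one least abundant in siCON cells.

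**Figure D3:**
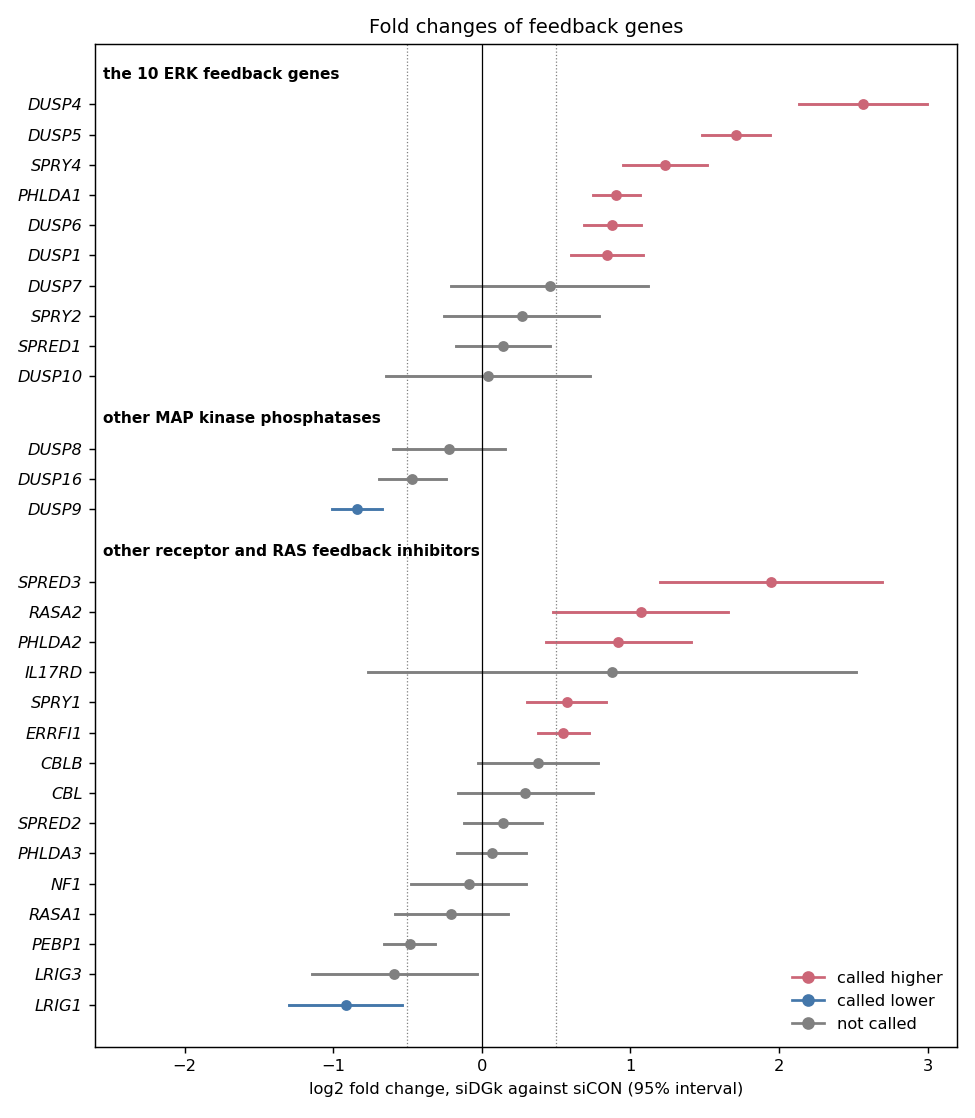
Log2 fold change of siDGk against siCON (horizontal axis; points with 95% intervals) for the tested genes among the 10 ERK feedback genes, the other MAP kinase phosphatases and the other receptor and RAS feedback inhibitors; red was called higher, blue lower and grey not called, and dotted lines mark the threshold of 0.5. DUSP4 is at 2.56 and DUSP9 at −0.84.

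No other MAP kinase phosphatase that was tested was called higher, and a difference from the feedback genes was not tested. Of 7 listed genes, 3 were tested, 0 were called higher and 1, DUSP9, was called lower by edgeR. Among all tested genes 7.42% were called higher and 6.68% lower. At an unadjusted p under 0.05 edgeR gave 0 higher and 2 lower, and DESeq2 called 0 higher and 1 lower. DUSP9, a cytoplasmic ERK phosphatase of the same class as DUSP6, stood at 650.4, 701 and 639 CPM in siCON replicates 1, 2 and 3 and at 409, 343 and 359 CPM in the siDGk replicates. All siDGk libraries lay below all siCON libraries. The log2 fold change of DUSP9 was −0.84 ± 0.08 (SE), with an adjusted p of 4.43e-07 by edgeR's quasi-likelihood test with Benjamini-Hochberg adjustment. DUSP16, which acts on JNK and p38, was at −0.47 (95% interval −0.69 to −0.24), under the threshold on fold change, and passed it without siCON replicate 2 (−0.53), siDGk replicate 1 (−0.53) or siDGk replicate 3 (−0.52). DUSP8 was at −0.22, with a 95% interval from −0.60 to 0.16, and moved to −0.37 without siDGk replicate 1 and to −0.08 without siDGk replicate 2.

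Taking the 10 typical MAP kinase phosphatases together, DUSP1, DUSP2, DUSP4, DUSP5, DUSP6, DUSP7, DUSP8, DUSP9, DUSP10 and DUSP16, their summed per-length level was 377 ± 22.0 CPM per kb in siCON and 387 ± 15.9 in siDGk libraries (SD, n = 3 each). The libraries overlapped, and an exact two-sided permutation test over the 6 libraries gave p = 0.5. With 3 against 3 libraries this test cannot give a p below 0.1, so it does not show that the sum was unchanged. DUSP9 made up 65.4, 63.1 and 62.5% of the sum in siCON replicates 1, 2 and 3. Its share was 36.6, 33.3 and 33.7% in the siDGk replicates.

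The nuclear class of DUSP1, DUSP2, DUSP4 and DUSP5 made up 17.6, 21.9 and 19.3% in siCON replicates 1, 2 and 3 and 40.6, 43.3 and 44.7% in the siDGk replicates. The cytoplasmic ERK class of DUSP6, DUSP7 and DUSP9 went from 73.5 ± 1.53% to 51.9 ± 2.08%, although DUSP6 alone went from 9.42 ± 0.996% to 16.8 ± 1.10% (SD, n = 3 each). The JNK and p38 class of DUSP8, DUSP10 and DUSP16 held 6.89 ± 0.690% in siCON and 5.26 ± 0.326% in siDGk libraries. In siDGk cells the share of the nuclear class was still below that of the cytoplasmic class in each library. The exact two-sided permutation test gave p = 0.1 for the share of DUSP9 and of each class, which is the smallest p that 3 against 3 libraries allow.

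**Figure D4:**
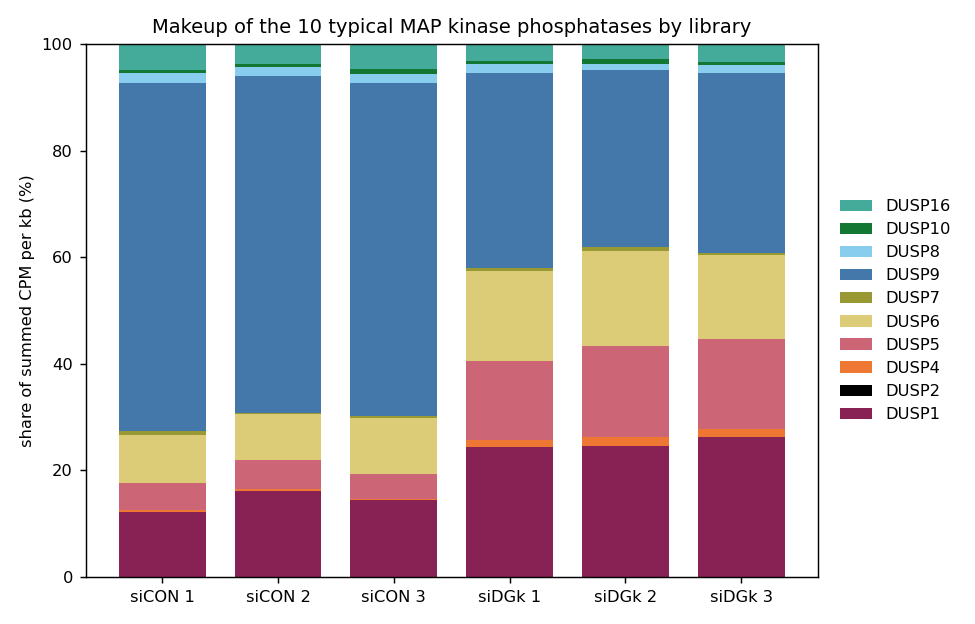
Share of each of the 10 typical MAP kinase phosphatases in their summed CPM per kb (vertical axis, 0 to 100%) in each library. DUSP9 (dark blue) takes 62.5 to 65.4% of the siCON bars and 33.3 to 36.6% of the siDGk bars, where DUSP1, DUSP5 and DUSP6 take more.

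All 10 genes have fewer exons than the median gene, and 8 have shorter spans, which the selection did not use. In Gencode 44 on GRCh38 the canonical transcripts of DUSP1, DUSP4, DUSP5 and DUSP10 have 4 exons, those of DUSP6 and DUSP7 have 3, and those of SPRY2, SPRY4 and PHLDA1 have 2. Only SPRED1, with 7, came near the median of 9 exons over the 12370 tested genes with a canonical coding transcript. DUSP1 spans 3100 bases and DUSP6 5267 bases, shorter than all but 3.7% and 8.8% of those genes, and the median span was 32330.5 bases. SPRED1 (104414 bases) and DUSP10 (40666 bases) were the members with spans above that median, and neither was called. SPRY2 (5151 bases) and DUSP7 (7653 bases) were not called either, and both are shorter than the called DUSP4 (17621 bases). Span thus did not divide called from uncalled genes.

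The pentamer ATTTA, the core of AU-rich elements that shorten the life of many early response transcripts, was counted in the 3′ untranslated regions of the same transcripts. DUSP1 held 4 copies in 666 bases (6.01 per kb), PHLDA1 held 14 in 4672 bases (3.00 per kb) and SPRY4 held 8 in 3779 bases (2.12 per kb). The median over tested genes was 2 copies, or 1.64 per kb. DUSP4 held 6 copies in 3962 bases (1.51 per kb), DUSP6 held 1 in 2019 bases and DUSP5 held 0 in 1107 bases. SPRED1, which was not called, held the most, with 24 copies in 5585 bases. The called genes therefore shared no common density of this pentamer.

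Other inhibitors of receptors and RAS were read from a list of 16 genes, chosen with earlier results of these data known. Of these 15 were tested, and 5 were called higher and 1 lower by edgeR. Among all tested genes 7.42% were called higher and 6.68% lower. At an unadjusted p under 0.05 the counts in the list were 5 and 3, and by DESeq2 5 and 1. The median log2 fold change was 0.29. SPRY1, a Sprouty relative outside the 10, rose from 40.3 ± 2.47 to 59.8 ± 2.34 CPM (SD, n = 3 each), by 0.57 ± 0.13 (SE) on the log2 scale. SPRED3 rose from 3.13 ± 0.683 to 12.0 ± 3.86 CPM, by 1.94 ± 0.35 (SE), or by 1.26 in DESeq2 with shrunken fold changes. PHLDA2, RASA2 and ERRFI1, the inducible inhibitor of EGF receptor family kinases, were also called higher (0.92, 1.07 and 0.55). LRIG1, which lowers receptor levels at the membrane, fell by 0.92 on the log2 scale. PEBP1, a RAF inhibitor, was lower in every siDGk library than in any siCON library but under the fold threshold (−0.48), which it passed without siCON replicate 3 (−0.51) or siDGk replicate 1 (−0.59). The Sprouty and Spred families were thus each called in part. SPRY1, SPRY4 and SPRED3 passed. SPRY2, SPRED1 and SPRED2 (0.14, or 0.05 to 0.20 with a library left out) did not, and SPRY3 was not tested. ERRFI1 fell under the fold threshold without siCON replicate 1 (0.48) or siDGk replicate 1 (0.48), and RASA2 missed the adjusted p without siDGk replicate 3 (adjusted p = 0.054 by edgeR's quasi-likelihood test with Benjamini-Hochberg adjustment).

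Most genes of the cascade that the 10 genes restrain were not called. Of the 24 genes of the RAS, RAF, MEK and ERK core, all tested, 5 were called higher and 1 lower by edgeR. Among all tested genes 7.42% were called higher and 6.68% lower. At an unadjusted p under 0.05 edgeR gave 6 higher and 3 lower, and DESeq2 called 5 higher and 1 lower. The median log2 fold change was −0.06. MAPK3, which codes for a kinase of the ERK family, was not called, at −0.41 (95% interval −0.68 to −0.15). It was lower in every siDGk library than in any siCON library and missed the fold threshold alone. Its adjusted p was 0.0271 by edgeR's quasi-likelihood test with Benjamini-Hochberg adjustment, and 0.0391 to 0.143 with a library left out. SHC1, the receptor adaptor, and MAP2K1, which codes for MEK1, were called higher at 1.18 ± 0.08 and 0.69 ± 0.11 (SE), as were RRAS (0.76), PEA15 (0.79) and LAMTOR3 (0.55), and RPS6KA3 was called lower (−0.57). LAMTOR3 was no longer called with siCON replicate 1 (0.46) or siDGk replicate 1 (0.50) left out, RPS6KA3 without siCON replicate 1 (−0.45) or siDGk replicate 3 (−0.48), and RRAS without siCON replicate 3 (0.65). In the JNK and p38 cascade, 15 of 17 genes were tested. By edgeR 1 (MAPKAPK2, at 0.52) was called higher and 0 lower, and this 1 higher is near the share of all tested genes. At an unadjusted p under 0.05 edgeR gave 3 higher and 4 lower, and DESeq2 called 1 higher and 0 lower. MAPKAPK2 was under the threshold without siCON replicate 2 (0.48), siDGk replicate 1 (0.43) or siDGk replicate 3 (0.47).

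Of the listed transcripts that respond to ERK, 19 of 22 were tested, and 11 were called higher and 0 lower by edgeR. Among all tested genes 7.42% were called higher and 6.68% lower. At an unadjusted p under 0.05 the counts in the list were 13 and 0, and by DESeq2 11 and 0. The median log2 fold change was 0.65. This list was chosen with earlier results of these data known, so its share of calls is no independent evidence. AREG, an EGF receptor ligand, rose from 51.0 ± 7.80 to 258 ± 27.3 CPM (SD, n = 3 each), and IER3, FOSL1, EGR1 and CCND1 rose by 1.15, 1.44, 1.43 and 0.79 on the log2 scale. LIF, PLAUR, KLF6, TRIB1, IER2 and EGR3 were also called higher (1.50, 2.17, 0.65, 0.63, 0.51 and 2.80). DESeq2 with shrunken fold changes gave 1.24 for PLAUR and 0.87 for EGR3, and EGR3 was not called by edgeR without a count filter (adjusted p = 0.0681) or with a replicate block (adjusted p = 0.0782). Not every transcript of the list moved in this way: ETV4, ETV5, FOS and MYC were not called, at −0.10, 0.26, 0.54 and 0.02. With a library left out these ran from −0.17 to −0.04, from 0.18 to 0.34, from 0.33 (without siCON replicate 1) to 0.84 (without siCON replicate 2) and from −0.02 to 0.08. EGR3 was under 4 CPM on average and its call was lost without siCON replicate 1, 2 or 3 or siDGk replicate 1 or 2 (3.11, 2.61, 2.73, 2.84 and 2.51, with adjusted p between 0.0513 and 0.182 by edgeR's quasi-likelihood test with Benjamini-Hochberg adjustment). IER2 lost its call without siCON replicate 1 or 3 or siDGk replicate 3 (0.40, 0.47 and 0.47).

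ETS, SRF, CREB and AP-1 factors and related regulators were a further list of 14 genes, all tested. By edgeR 3 were called higher and 0 lower, where 7.42% of all tested genes were called higher and 6.68% lower. At an unadjusted p under 0.05 the counts in the list were 4 and 1, and by DESeq2 3 and 0. JUN, an AP-1 subunit, rose from 187 ± 4.23 to 335 ± 15.8 CPM, ELK3 from 12.0 ± 3.89 to 45.5 ± 6.98 CPM and ETS1 from 3.61 ± 0.754 to 22.4 ± 2.50 CPM (SD, n = 3 each). SRF and CREB1 were not called, at −0.06 (−0.118 to −0.0028 with a library left out) and −0.43, although CREB1 was called lower without siDGk replicate 1 (−0.68). SHC1, CCND1, EGR1 and JUN are in the same cytokine signaling list as DUSP4 and DUSP6, which the study printed from these libraries.

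**Figure D5:**
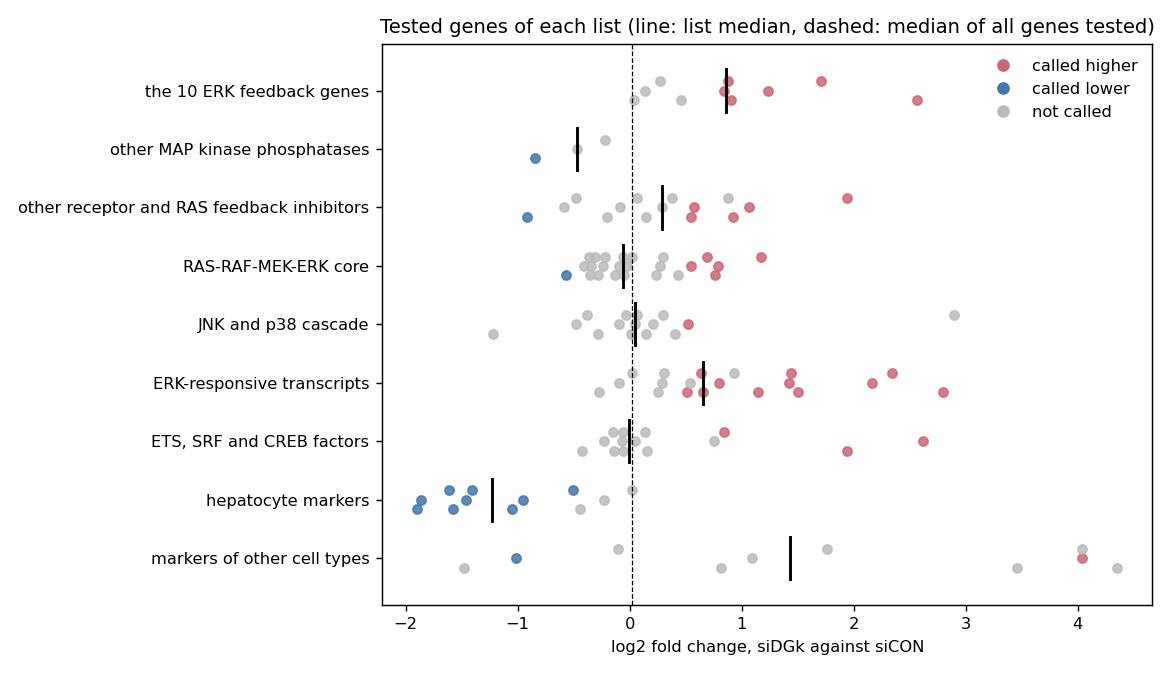
Log2 fold change of siDGk against siCON (horizontal axis) of every tested gene of each list, 1 point per gene, red where called higher, blue where called lower and grey where not called; black lines give the median of a list and the dashed line that of all 14476 tested genes (0.02). The 10 ERK feedback genes have a median of 0.86 and the ERK-responsive transcripts 0.65, while the hepatocyte markers have −1.23.

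Markers of cell identity moved in the same libraries as the feedback genes. All 12 hepatocyte markers were detected, 0 were called higher and 9 lower by edgeR (ALB, APOA1, APOB, TTR, FGA, FGB, TF, AFP and HNF4A), and SERPINA1 and APOA2 were among those not called. At an unadjusted p under 0.05 edgeR gave 0 higher and 11 lower, and DESeq2 called 0 higher and 9 lower. Among all tested genes edgeR called 7.42% higher and 6.68% lower. Together they summed to 58650, 53060 and 51780 CPM in the siCON libraries (replicates 1, 2 and 3) and to 30930, 27690 and 26280 CPM in the siDGk libraries, with ALB the most abundant in siCON libraries and SERPINA1 in the siDGk libraries. HNF4A was under the threshold without siCON replicate 1 (−0.47) or siDGk replicate 3 (−0.47). The part of this loss in the rise of DUSP4, DUSP5 and the others was not tested.

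Of 12 markers of other cell types, 10 were tested, 1 (COL1A1) was called higher and 1 (PDGFRB) lower. These counts are near the shares of all tested genes, 7.42% higher and 6.68% lower. The 12 markers summed to 17.7, 23.6 and 15.5 CPM in the siCON libraries (replicates 1, 2 and 3). In the siDGk libraries they summed to 41.5, 97.3 and 29.6 CPM, so siDGk replicate 2 was highest. PDGFRB was the most abundant of them in each siCON library, COL1A1 in siDGk replicates 1 and 3, and VWF in siDGk replicate 2 at 31.4 CPM. The epithelial marker TP63 had 0 counts in every library, and KRT5 had none outside siDGk replicate 1. PDGFRB lost its call without any of siCON replicates 1, 2 and 3 or siDGk replicates 1 and 3 (−1.02, −0.88, −1.12, −1.13 and −0.81).

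Without siDGk replicate 2 the same 6 feedback genes were called, with log2 fold changes of 2.54 for DUSP4, 1.71 for DUSP5, 1.28 for SPRY4, 0.92 for PHLDA1, 0.86 for DUSP6 and 0.89 for DUSP1. Without siCON replicate 3, the library with the lowest total, the same 6 were called as well, with DUSP4 at 2.43 and DUSP5 at 1.64. Marker levels and library depth differed between libraries, while these calls did not rest on either of those libraries. Lower hepatocyte marker sums and higher sums of the other markers were also found in siDGk replicates 1 and 3. The part of these marker changes in the calls was not tested.

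The genes most like DUSP6 across the 6 libraries, outside the 10, were ACSL5, ZC3H15, FAM162A, PPP1CB and POLB. Pearson's r with DUSP6 in log2(CPM + 1) ran from 0.9964 (POLB) to 0.9988 (ACSL5), among genes averaging 10 CPM or more. With 3 libraries in each of 2 separate groups, such values mainly describe the step between the groups. ACSL5 rose from 126 ± 11.4 to 210.3 ± 7.69 CPM, a log2 fold change of 0.74 ± 0.09, while ZC3H15 and FAM162A, at 0.43 and 0.46, stayed under the fold threshold (FAM162A passed it without siCON replicate 3, at 0.51). Likeness in this sense is a description and says nothing of shared control.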

How the data were processed

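Bulk RNA-seq of 6 HepG2 libraries (3 siCON, 3 siDGk, 48 h) was analysed from the gene counts that the authors deposited. Per the submitters' processing notes and the study's methods, the authors used Bowtie 1.1.2, aligned paired-end reads to GRCh38 with STAR 2.6.1 on Gencode 27, removed low-complexity reads with PRINSEQ Lite, and assigned the rest to genes in featureCounts 1.6.5 with default settings and a minimum Phred quality of 10. The defaults take no account of strand and drop multi-mapping reads and reads over more than 1 gene, so counts of overlapping genes are uncertain. The library kit is not given in the sources used here. The deposited counts are whole numbers, neither normalized nor averaged. Counts of each replicate pair differed beyond sampling error, with a chi-square of 10.7 to 25.7 per degree of freedom.

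Low genes were removed with filterByExpr (minimum count 10) in edgeR 4.0.16 under R 4.3.3. TMM-scaled counts then entered a robust quasi-likelihood fit with condition as its term, with Benjamini-Hochberg adjustment over 14476 genes. Standard errors were taken as the size of the log2 fold change over the root of the F statistic, and 95% intervals use the t distribution with the fit's degrees of freedom. Gene lengths (union of exons) and canonical transcripts were taken from Gencode 44 (GRCh38), which gave a length for 98.9% of 24670 genes with counts. Promoter windows came from RefSeq. Scripts were tested on simulated data. Other settings tried were DESeq2 1.42.0 (unshrunken, or shrunken by a normal prior), RLE and upper-quartile scaling, no count filter, a mean CPM above 10, other call thresholds, replicate number as a block and each library left out; the length of the canonical transcript and that of unshared exon bases were added after seeing the data. The fit with a block gave no standard error for 2 genes, neither of them named, whose F statistic was 0 within rounding. Figures were drawn with matplotlib 3.10.9.

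The genes named are the 10 feedback genes, DGUOK, genes of the lists described in the text, and the 5 genes most like DUSP6 by Pearson correlation among genes averaging 10 CPM or more. The 10 genes and the lists were chosen with earlier results of these data known.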

Additional observations from a re-analysis of the deposited data

How the results depend on the processing

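The 6 calls among the feedback genes held in all 13 other fits, with DUSP1 between 0.71 and 1.00 on the log2 scale, DUSP4 between 2.18 and 2.71, DUSP5 between 1.62 and 1.82, DUSP6 between 0.82 and 0.95, SPRY4 between 1.12 and 1.28 and PHLDA1 between 0.86 and 0.92. DUSP7, SPRY2 and SPRED1 were called in none of them, and neither was DUSP10, which has no value at a mean CPM above 10 and ranged from −0.09 to 0.27 when a library was left out, turning negative in 3 of those fits (leaving out siCON replicate 1, siCON replicate 2 and siDGk replicate 2 gave −0.09, −0.04 and −0.08). A fold threshold of 1 on the log2 scale left 3 of the 6 (DUSP4, DUSP5 and SPRY4), 12 calls in place of 28 in the pathway lists and 819 in place of 2041 among all genes, by the construction of that threshold. With no fold threshold the counts were 6, 34 and 2847. When a library was left out, the calls among all genes ran from 1704 to 1935, those in the pathway lists from 24 to 28, and DGUOK from −2.72 to −2.42. MYC ranged from −0.0182 to 0.0796 and SERPINA1 from −0.0558 to 0.0618 in these fits, with either sign and no call. Deviations of same-numbered siCON and siDGk libraries from their group means correlated across genes at 0.024, 0.017 and −0.002. Those of differently numbered libraries correlated at −0.023 to 0.002. The sample titles give replicate numbers alone, so whether the libraries were paired was not settled. With the replicate block 2077 genes, 6 of the feedback genes and 27 pathway genes were called, DGUOK was at −2.58, and the call of EGR3 was lost (adjusted p = 0.0782 by edgeR's quasi-likelihood test with Benjamini-Hochberg adjustment), as it was with no count filter (adjusted p = 0.0681). DESeq2 with shrunken fold changes put LAMTOR3, MAPKAPK2, IER2 and POLB under the fold threshold (0.50, 0.48, 0.47 and 0.47), and POLB was also not called without siCON replicate 1 or 2 or siDGk replicate 1 or 2 (adjusted p from 0.0632 to 0.0818). No scaling moved the median of all genes by more than 0.1. With canonical transcript lengths, chosen after seeing the data, the difference in the share of DUSP9 was −29.1 percentage points, as with exon unions, and that of the nuclear class was 22.7 in place of 23.2; SPRY2 then stood above SPRED1 in both groups and, in siDGk cells, DUSP7 above DUSP10. Over exon bases shared with no other gene, also chosen late, these differences were −29.0 and 21.2, and the summed level of the 10 phosphatases was 391 and 413 CPM per kb (exact permutation p = 0.3), with the share of DUSP6 at 12.7 and 22.1%.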
